A study of Caenorhabditis elegans with 2 samples.

Results

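The retinoblastoma and DREAM complex genes of Caenorhabditis elegans are 8 of the 19973 protein-coding nuclear genes of the annotation: lin-35, efl-1, dpl-1, lin-9, lin-37, lin-52, lin-53 and lin-54. They were taken by name, and were selected on an earlier reading of the same peak lists, in which lin-35 had a strong peak. The peak scores and counts at their promoters are therefore given as a description, with no test. The data are ChIP-seq of LIR-3, a protein named as lin-26 related, in whole hermaphrodite L1 larvae of strain OP312, with genotype unc-119(ed3) III; wgIs312. The wgIs312 transgene adds GFP and FLAG to the C-terminus of LIR-3, and sonicated chromatin was pulled down with anti-GFP. Larvae were synchronized by starvation after bleaching and collected 6 h later, in 2 biological replicates. There was no second group, a control experiment named in the labels was not analysed here, and whole animals were used, so that the cell types bound cannot be told apart.

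LIN-35 is the retinoblastoma-like pocket protein of the worm. With the E2F-type factor EFL-1, its partner DPL-1 and the MuvB core it forms DREAM, a repressor complex that holds down cell cycle genes, and germline genes in the soma. In the MuvB core, LIN-54 binds DNA, and E2F and DP proteins bind it separately. These genes belong to the synMuv B class, first found by its redundant role with synMuv A genes in vulval development.

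LIR-3 was found upstream of 4 of the 8 genes in the IDR set, the peaks retained at the authors' limit on irreproducible discovery rate across replicates. They were lin-35, lin-54, lin-53 and lin-9. By role, these were the pocket protein, 0 of the 2 E2F and DP genes, and 3 of the 5 MuvB core genes. A gene was counted when its annotated 5' end had a summit, the strongest point of a peak, 500 bp or less away, and 6.09% of all protein-coding genes were counted by that rule. The pooled list before the threshold, with 30000 regions, had a summit at 5 of the 8 genes, against 35.3% of protein-coding genes. The replicate 1 list and the replicate 2 list each had a summit at 6 of the 8 genes, against 35.4% and 35.4% of protein-coding genes. Both replicate lists had one at 5 of the 8 genes, against 20.7% of protein-coding genes. Because the genes were chosen with these lists known, nothing is read from these shares.

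The IDR set had 1894 nuclear peaks, with scores between 89.9 and 2614 and a median of 159. The score is the authors' signal value, has no unit in the files and ranks peaks within 1 list. The scales of the lists are not stated to match, so that scores were ordered within a list. All 4 IDR peaks at the genes had the highest −log10 q of the set, 2.01, and the q-values do not order them.

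**Figure D1:**
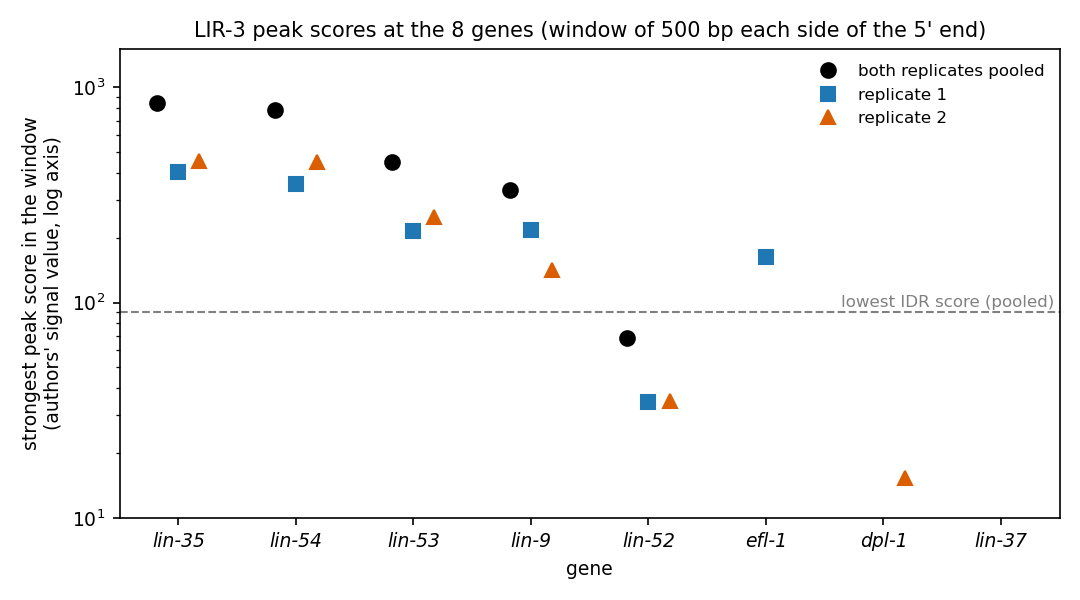
Strongest peak score within 500 bp of the 5' end of each of the 8 genes (vertical, log axis, authors' signal value) in the pooled list (circles), replicate 1 (squares) and replicate 2 (triangles). The dashed line is the lowest IDR score, 89.9, which applies to pooled scores. lin-35, lin-54, lin-53 and lin-9 have all 3 symbols, with pooled scores above the line, and lin-52 has all 3 below it; efl-1 has a square alone, dpl-1 a triangle alone and lin-37 no symbol.

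lin-35 (WBGene00003020) had the strongest peak of the 8 genes. Its score was 842 in the pooled list, where it ranked 66 among nuclear peaks, 405 in replicate 1 (rank 76) and 453 in replicate 2 (rank 67). It therefore stood near the top of every list, and among the 1216 protein-coding genes with an IDR peak 6% had a higher score. The gene lies at chrI:5807709-5815637 on the plus strand, and the pooled summit at position 5807467 is intergenic, 242 bp upstream. The replicate summits were 233 and 230 bp upstream, 3 bp apart. The same interval is the upstream region of vps-51, the gene of a vacuolar protein sorting subunit, which runs the other way. The vps-51 5' end is 418 bp from that of lin-35 and, at 176 bp, is nearer to the summit. These peak lists cannot tell which of the pair the binding goes with. A weak region inside lin-35, in an intron 663 bp downstream of the 5' end, had a pooled score of 40.3 and rank 11272, and lay outside the window. In replicate 2 it ranked 2798, with a score of 40.6 and a −log10 q of 1.49, and in replicate 1 the nearest summit in the gene ranked 27027.

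**Figure D2:**
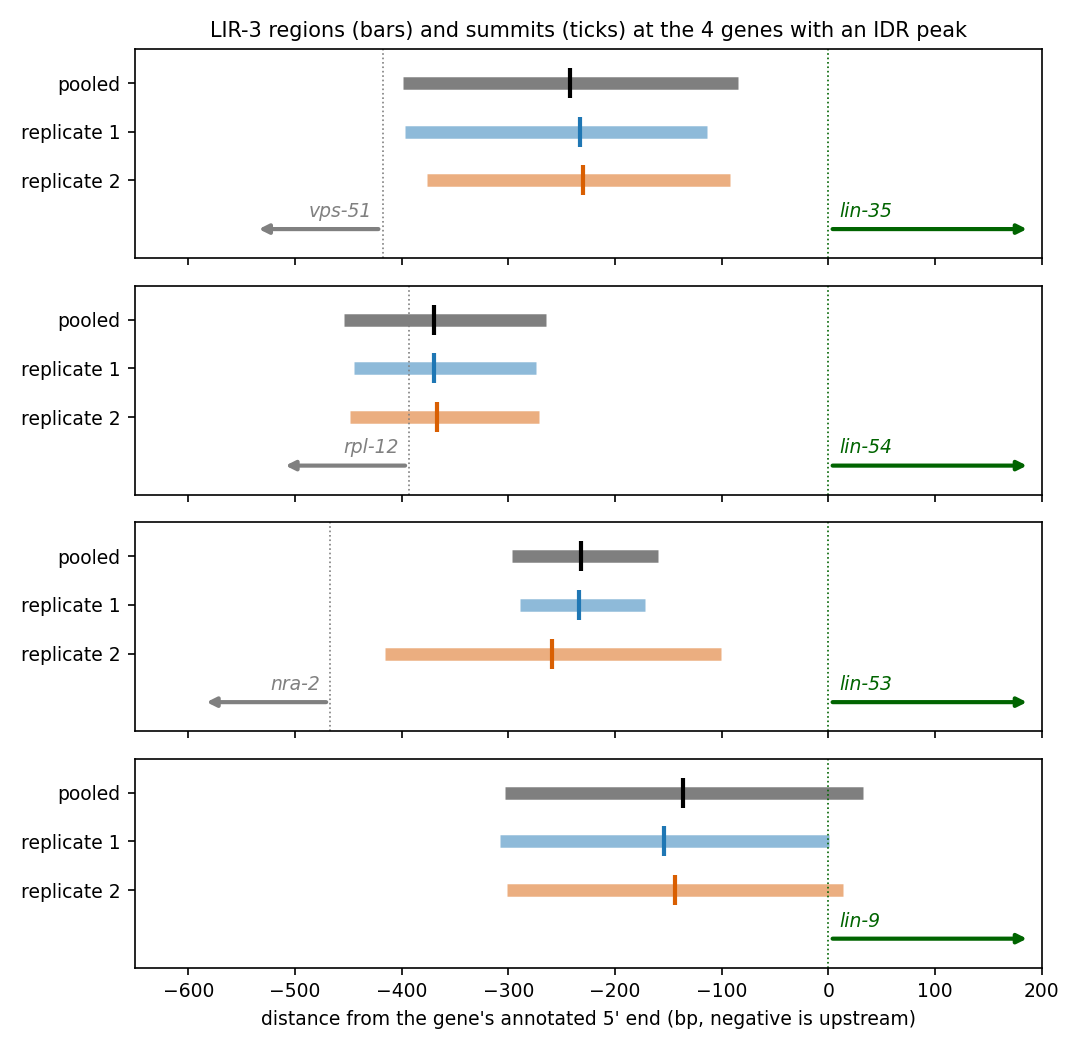
Regions (bars) and summits (ticks) in the pooled list, replicate 1 and replicate 2 at the 4 genes with an IDR peak, against distance from the gene's annotated 5' end (horizontal, bp, negative upstream). Arrows mark the genes and the neighbours that run the other way. The replicate summits are 3 bp apart at lin-35 and at lin-54, 10 bp apart at lin-9 and 25 bp apart at lin-53.

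The E2F and DP genes had no peak in the IDR set or the pooled list. dpl-1 (WBGene00001061, chrII:9169910-9172565, plus strand), which codes for the DP partner of E2F, had a summit in replicate 2 alone. It had a score of 15.3 and rank 25888 in a list of 30000 regions, 231 bp inside the gene in a coding exon. That rank is near the foot of the list, and replicate 1 had no summit there.

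efl-1 (WBGene00001161, chrV:16958590-16965675, minus strand), which codes for the E2F-type factor that acts with LIN-35, had a summit in replicate 1 alone. Its score was 163, with rank 379 and a −log10 q of 2.20, the highest in that list, and its summit was 163 bp upstream. The nearest summits lay 8722 bp away in the pooled list and 15147 bp away in replicate 2. The region was narrow, at 92 bp, where 98.7% of all replicate 1 regions were 310 bp. Among the 1894 strongest replicate 1 peaks, 240 were under 200 bp wide. The replicate 1 regions at lin-53 and lin-54 were also narrow, at 118 and 172 bp. Of the 379 strongest replicate 1 peaks, 28 (7.39%) had no overlapping pooled region, and 22 of them had none in replicate 2 either. Of the 379 strongest replicate 2 peaks, 6 (1.58%) had no pooled region, and 1 of them had none in replicate 1. Why replicate 1 stands alone here was not tested. The 92 bases of the region are shown because they are all that any list called at the efl-1 promoter. They were read from the RefSeq WBcel235 genome on the minus strand, the strand of the gene, with capitals marking a match to the letters ACGCAG on the other strand.
efl-1, chrV:16965802-16965893: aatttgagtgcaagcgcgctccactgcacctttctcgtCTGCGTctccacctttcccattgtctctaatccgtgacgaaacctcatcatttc

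In the MuvB core, lin-54 and lin-9 had IDR peaks, lin-54 on a promoter shared with another gene and lin-9 on one of its own. lin-54 (WBGene00003037, chrIV:13241044-13243401, plus strand) codes for the DNA-binding subunit. Its peak had a score of 785 in the pooled list (rank 81), 353 in replicate 1 (rank 103) and 450 in replicate 2 (rank 68). It was the second strongest of the 8 genes in each list, and 7.4% of the genes with an IDR peak had a higher score. The pooled summit was 370 bp upstream of lin-54 but only 23 bp upstream of rpl-12, which codes for ribosomal protein uL11 and runs the other way from a 5' end 393 bp distant. lin-9 (WBGene00002998, chrIII:8900237-8904131, minus strand) codes for another core subunit. Its score was 332 in the pooled list (rank 362), 217 in replicate 1 (rank 243) and 142 in replicate 2 (rank 524). This made it the one gene of the 4 whose replicate ranks differed by more than a factor of 2. The summit was 136 bp upstream, no other annotated 5' end lay within 500 bp of it, and the replicate summits were 10 bp apart. The sequences around both summits are shown because the letters searched for E2F-like and CHR-like cores occur in them. The CHR, or cell cycle genes homology region, is the DNA element bound by LIN-54. They were read from the RefSeq WBcel235 genome on the strand of each gene, 100 bases on each side of the pooled summit, without the part that lies in exons of rpl-12. Capitals mark matches on either strand to GCGCGAA (E2F-like), TTTGAA (CHR-like), GAGAGA or ACGCAG.
lin-54, chrIV:13240652-13240774: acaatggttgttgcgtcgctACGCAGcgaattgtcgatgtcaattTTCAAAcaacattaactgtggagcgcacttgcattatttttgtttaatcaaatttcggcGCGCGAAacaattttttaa
lin-9, chrIII:8904167-8904367: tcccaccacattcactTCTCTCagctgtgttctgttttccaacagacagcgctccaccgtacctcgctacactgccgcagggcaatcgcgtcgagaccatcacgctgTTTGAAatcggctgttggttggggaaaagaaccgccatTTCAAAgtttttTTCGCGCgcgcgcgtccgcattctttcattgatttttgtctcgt

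The lin-9 stretch carries GCGCGAA and a TTTGAA 6 letters apart, both on the other strand, so that they read TTCGCGC and TTCAAA in the line above. The core GCGCGAA was in the windows of 2 of the 4 genes, lin-9 and lin-54. It was in 4.29% of the other 1890 IDR windows of 100 bases on each side, and 0.963% of windows 500 bp away from summits. Among promoters it was in 1 of those of the 8 genes, that of lin-9, and in 1.93% of all promoters. TTTGAA is common. It was in the windows of lin-9, lin-53 and lin-54, against 32.7% of other IDR windows and 45.9% of the windows 500 bp away. It was in the promoters of 6 of the 8 genes and in 62.6% of all promoters. Promoters were taken from 250 bp before to 50 bp after the 5' end. The E2F-like core GCGGGAA was in the window of lin-53 and in 3.65% of other IDR windows. A further E2F-like core that overlaps it, GGCGGGA, was in none of the 4 windows and in 3.28% of the others. A further CHR-like core, TTCGAA, was also in none of the 4 and in 12.3% of the others. An E2F-like and a CHR-like core with at most 20 letters between them stood in 1 of the 4 member windows, that of lin-9. Of the other IDR windows 2.38% held such a pair. Among the promoters of the 8 genes that of lin-9 alone held one, and of all promoters 1.36% did. lin-35 had none of the 5 cores in its window or its promoter. Both strands were searched and overlapping matches were kept. No match says only that these letters are not in the window.

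3 further 6-letter words were searched after they were found more often in IDR windows than 500 bp away. Words not searched at the genes were too, such as CGTCTC, in 24.4% of other IDR windows against 6.26%. GAGAGA was in the windows of lin-35 and lin-9 and in 40.6% of other IDR windows, against 10.3% of the windows 500 bp away. ACGCAG was in the window of lin-54 and in 21.6% of other IDR windows, against 3.75%. CACACA was in the window of lin-53 and in 22.2% of other IDR windows, against 8.8%. Each of the 4 member windows held at least 1 of the 3 words searched, as did 59.5% of other IDR windows and 20.7% of the windows 500 bp away. The promoters of 5 of the 8 genes held at least 1, as did 37.5% of all promoters. The words were picked for being frequent in IDR windows, so nothing is read from these counts. The base composition of the 4 windows differed: G and C made up 36.3% at lin-35, 44.3% at lin-54, 47.8% at lin-53 and 51.7% at lin-9, against a median of 41.8% in the other IDR windows and 35.8% in the windows 500 bp away.

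lin-53 (WBGene00003036) codes for a histone-binding WD40 protein of the RbAp46/48 type, which is shared by the MuvB core and other chromatin complexes. It lies at chrI:9618196-9619760 on the minus strand. Its score was 451 in the pooled list (rank 226), 214 in replicate 1 (rank 254) and 249 in replicate 2 (rank 221), close to the same rank in all 3 lists. The pooled summit was 232 bp upstream of lin-53 and 235 bp upstream of nra-2, a nicalin homologue that runs the other way, so that it stood almost midway in the 467 bp between the 5' ends. The replicates placed it differently: the replicate 1 region was 118 bp wide with its summit 234 bp upstream, and the replicate 2 region was 316 bp wide with its summit at -259 bp, on the nra-2 side of the middle. The pooled region and the replicate 2 region did not overlap by 50% in both directions.

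Of the remaining core genes, lin-52 and lin-37 had no IDR peak. lin-52 (WBGene00003035, chrIII:9824083-9824750, minus strand), which in other animals links the core to the pocket protein, had a pooled score of 68.4 (rank 2920), below the lowest IDR score. Its scores were 34.4 (rank 3072) in replicate 1 and 34.9 (rank 3727) in replicate 2. Both replicates thus placed a weak region there, with summits 87 and 59 bp inside the gene, in a coding exon. A second pooled region, with score 45.2 and its summit 546 bp upstream, fell just outside the window, in a coding exon of ZK632.9, which ends 126 bp before lin-52 on the same strand. lin-37 (WBGene00003022, chrIII:7070890-7072552, minus strand) had no summit within 500 bp in any of the 4 lists. It has 4 genes upstream on the same strand with short gaps, the nearest at 60 bp, and the first gene of that run, ZK418.7, had no pooled summit either.

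lin-35 and lin-54 came first and second of the 4 genes in each list, and the other 2 changed places. The pooled order was lin-35, lin-54, lin-53 and lin-9. In replicate 2 lin-35 stood above lin-54 by 453 against 450, and in replicate 1 lin-9 stood above lin-53 by 217 against 214. Within each list, lin-35 and lin-54 stood above lin-53 and lin-9.

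**Figure D3:**
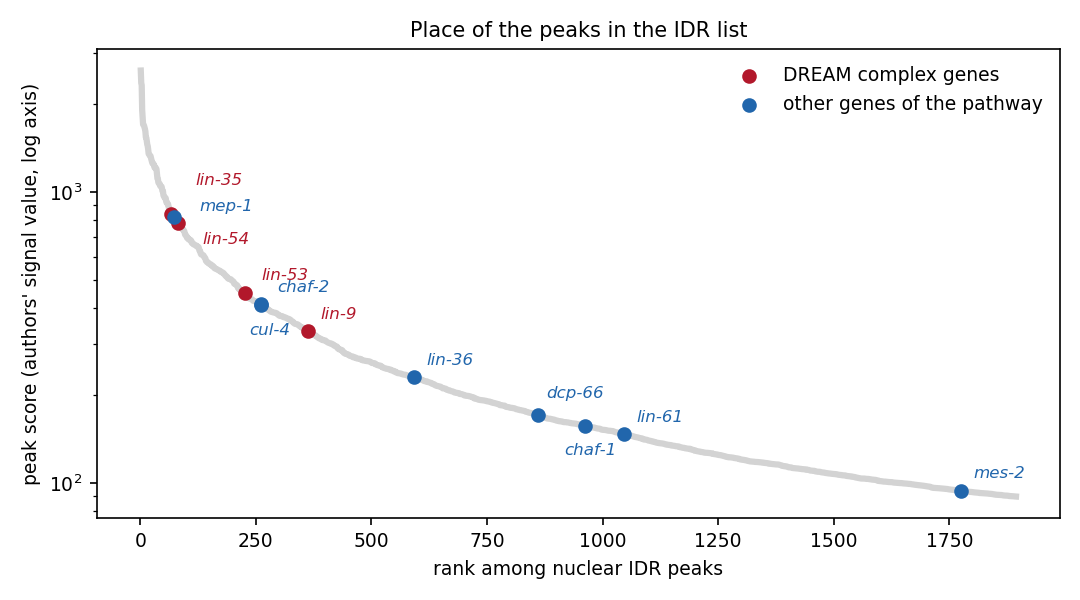
Peak score (vertical, log axis) against rank for the 1894 nuclear IDR peaks (grey), with the 4 DREAM complex genes in red and the 8 related genes that had an IDR peak in blue. The 4 DREAM genes lie between rank 66 and rank 362, in the steep left part of the curve; 5 of the 8 related genes lie beyond rank 500.

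Genes around the complex were given by 7 lists with 46 genes in the annotation. Beside the 4 of 8 DREAM complex genes, 8 of these 46 genes (17.4%) had an IDR peak, where the share over all protein-coding genes was 6.09%. The median pooled score was 618 over the 4 DREAM genes and 201 over the 8 others, against 193 over all 1216 genes with an IDR peak. The DREAM genes were chosen with the strong lin-35 peak known, so nothing is read from these medians. The highest 2 scores of the 4, at lin-35 and lin-54, belong to summits nearer to vps-51 and rpl-12. By list the 8 were 2 of 8 other synMuv B genes, 0 of 4 synMuv A genes, 0 of 2 other E2F genes, 2 of 7 genes of the NuRD and MEC complexes, 3 of 7 histone chaperone and PRC2 genes, 0 of 12 genes of cyclins, cyclin-dependent kinases, their inhibitors and CDC25 phosphatases, and 1 of 6 ubiquitin ligase and APC activator genes. The lists are small and were chosen with earlier results of these data known. No count was tested against that share, and nothing is read from the counts.

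**Figure D4:**
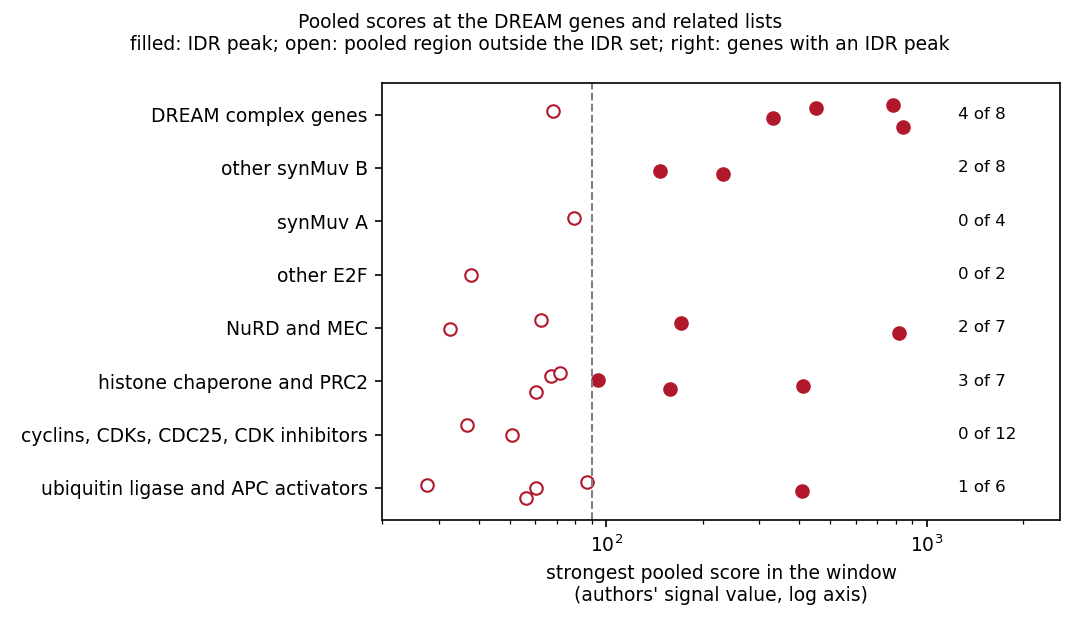
Strongest pooled score within 500 bp of the 5' end (horizontal, log axis) of each gene with a pooled summit, by list, with DREAM complex genes on top and points of a row shifted up or down to part them. Filled points are IDR peaks, open points are regions outside the IDR set, the dashed line is the lowest IDR score, and the counts at the right are genes with an IDR peak. The DREAM row has 4 filled points, from 332 to 842, and an open point for lin-52 at 68.4, below the line. The row of 12 cyclin, kinase, inhibitor and phosphatase genes has 2 open points and no filled one.

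The strongest peak at a related gene was at mep-1, a zinc-finger protein of the MEC complex with LET-418, with scores of 818 in the pooled list (rank 73), 327 in replicate 1 and 493 in replicate 2. It stood between lin-35 and lin-54 in the pooled list and above both in replicate 2. Its summit was 234 bp upstream, inside the exons of non-coding RNA genes annotated there. chaf-2, which codes for a subunit of the CAF-1 histone chaperone, scored 411 and cul-4, a gene for a cullin of ubiquitin ligases, scored 408 in the pooled list. The chaf-2 summit is shared with Y71G12B.30, which runs the other way. lin-36, another synMuv B gene, scored 231, with its summit 279 bp upstream but 45 bp from the non-coding RNA gene F44B9.11, in whose exon the replicate 2 summit lay. dcp-66, of the NuRD complex, scored 171, chaf-1 158 and lin-61, which codes for a protein with MBT repeats, 147. The lin-61 summit is shared with bub-1, a checkpoint kinase gene, 282 bp away on the other side.

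mes-2, the gene of the PRC2 methyltransferase, scored 94.3 (rank 1775), near the foot of the IDR set. Its window holds GCGCGAA and a TTTGAA 9 letters apart, as the lin-9 window has a pair 6 letters apart. It is shown for that comparison, read as the others on the plus strand, with the same motifs in capitals.
mes-2, chrII:14383735-14383935: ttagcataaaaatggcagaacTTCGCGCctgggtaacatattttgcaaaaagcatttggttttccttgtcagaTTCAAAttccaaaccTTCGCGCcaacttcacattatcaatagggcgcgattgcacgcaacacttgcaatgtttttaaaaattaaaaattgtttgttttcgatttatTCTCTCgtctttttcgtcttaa

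The 12 genes of cyclins, cyclin-dependent kinases, their inhibitors and CDC25 phosphatases had no IDR summit within 500 bp, where 6.09% of protein-coding genes had one. With a window of 1000 bp, or when any base of the peak counted, cye-1 and cyb-1 had an IDR peak. Of the 12 genes, 2 had a pooled summit, cyb-1 with a score of 50.7 and cki-2 with 36.7, where 35.3% of protein-coding genes had one. None had a summit in both replicates, where 20.7% of protein-coding genes did. Nothing is read from these counts. The promoters of cyd-1 and cdk-2 hold an E2F-like and a CHR-like core within 20 letters, 11 and 7 letters apart, as do 1.36% of all promoters. Neither gene had a pooled summit within 500 bp, and cdk-2 had weak summits in replicate 1 alone, at ranks 13933 and 15010. Whether such a pair goes with binding was not tested. Among the genes of the 7 lists, the next pooled scores below the IDR set were 86.8 at skr-1, 79.3 at lin-56, 71.6 at mes-6 and 67.4 at mes-3, beside 68.4 at lin-52.

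The genes whose scores in the 3 lists were most like those of each DREAM gene were found over 3734 protein-coding genes with a summit in all 3 lists, by the sum of absolute log2 differences in score. Genes that share the summit of the DREAM gene itself were left out. For lin-35 these were F09E5.11 and bmy-1, which share 1 summit, at 0.04, and C01G10.10 and C01G10.9, which share another, at 0.13. For lin-54 they were eelo-2 (0.15), cox-5A, a cytochrome oxidase subunit (0.17), iff-2, a translation factor (0.18), and rps-1, a ribosomal protein (0.18). For lin-53 they were gst-27, a glutathione transferase (0.06), adm-4 (0.12), agt-2 (0.12) and cdk-5, a cyclin-dependent kinase (0.15). For lin-9 they were pdhk-2, a pyruvate dehydrogenase kinase (0.28), rpl-41.2, a ribosomal protein (0.30), cpt-2, a carnitine palmitoyltransferase (0.34), and T28B8.1 (0.37). The lin-9 differences were the largest of the 4.

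All 4 IDR summits at DREAM complex genes were upstream, from 136 to 370 bp, and the median offset over the 1216 genes with an IDR peak was -187.5 bp. For 3 of the 4 the summit was also within 500 bp of another protein-coding gene, against 43.8% of the 1216. The member was the nearest gene for lin-53 and lin-9, 2 of 4, where 69.2% of the 1216 genes were the nearest to their own summit. For lin-53 this holds for the pooled summit, by 232 against 235 bp. The strongest summits of both replicates were nearer to nra-2. The regions at lin-54 and lin-53 were 190 and 138 bp wide, under 200 bp, as were 11.5% of nuclear IDR regions, and those at lin-35 and lin-9 were 315 and 336 bp.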

How the data were processed

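ChIP-seq peak lists of 2 biological replicates were used, on ce11. Per the file descriptions, the authors called peaks and background regions in each replicate and in the pooled data, 30000 regions a list, and derived the IDR set from them. The score is the authors' deposited signal value, with no unit given, and the −log10 q-values are theirs too. No label or header names the peak caller, aligner or IDR threshold (not given in the sources used here). Read depth is unknown, so no depth or counting interval is given.

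A summit was counted for a gene at up to 500 bp from its 5' end (Ensembl release 115, WBcel235, the assembly of ce11). All 1894 nuclear IDR peaks are also in the pooled list. The other 16 of the 1910 IDR peaks were mitochondrial and were left out. With 1 group there is no test between groups, and no p-value is given. Named genes were the 8 members, genes sharing a member's summit, genes of 7 related lists with an IDR summit, and for each member with an IDR peak the 4 genes with the most similar scores. Further genes, named for values below the IDR threshold or for motif pairs, were chosen after their values were seen. Members and lists were chosen with earlier results of these data known. Of 47 list symbols, 46 matched a gene. Windows of 250 and 1000 bp, other peak thresholds, assignment to the nearest gene and leaving out each replicate were tried. Python 3.11.15 with numpy 2.4.6 and matplotlib 3.10.9 was used, and the assignment of summits to genes was tested on simulated summits.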

Additional observations from a re-analysis of the deposited data

How the results depend on the processing

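The count of 4 of 8 DREAM complex genes with an IDR peak was 2 when each summit went to its nearest gene, since those at lin-35 and lin-54 then went to vps-51 and rpl-12. It was 3 with a window of 250 bp, which left out lin-54, and 4 or 5 under every other alternative, adding efl-1 without replicate 2 and lin-52 with the 3788 strongest pooled peaks. The shares of all protein-coding genes were 3.89% and 7.87% with windows of 250 and 1000 bp, and 4.22% by nearest gene. Protein-coding genes counted were 776 with 250 bp, 741 with the 947 strongest IDR peaks and 1853 with the 3788 pooled peaks, against 1216. Leaving out a replicate gave 1204 to 1264. By nearest gene, pooled summits were at 3 members, summits of both replicates at 3, and IDR peaks at 5 related genes. For lin-53 the replicate count then rests on weak summits inside the gene. They were 209 bp inside at rank 13045 in replicate 1, and 283 bp inside at rank 27741 in replicate 2. Summits of both replicates were at 3 members with 250 bp. IDR peaks were at 12 related genes with 1000 bp and 10 with any base of the peak, both adding cye-1 and cyb-1. The shares of all protein-coding genes were then 7.87% and 6.72%. Peaks were at 5 related genes with the 947 peaks and 15 with the 3788 peaks, where the shares were 3.71% and 9.28%. Replicate lists alone gave lin-35 scores of 405.3 to 452.9 and a strongest related score of 327.2 to 493.3, on scales not stated to match. Depth is unknown, so a missing summit is not an absence of binding. The 6-mers and the first gene of each same-strand run were added after seeing the data. No paired analysis was possible because there is only 1 group.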

Other observations

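hat-1, a histone acetyltransferase gene of the chaperone list, resembled efl-1 in its calls. It had a replicate 1 region 126 bp wide with a score of 271 and rank 152, its summit 242 bp upstream. The nearest summits were 17075 bp away in the pooled list and 19694 bp away in replicate 2. Of the 1894 strongest replicate 1 peaks, 137 (7.23%) had no overlapping pooled region. Of these 137, 22 were under 200 bp wide, as were 240 of all 1894. Of the 1894 strongest replicate 2 peaks, 52 (2.75%) had no pooled region. Of these 52, 3 were under 200 bp wide, as were 226 of all 1894.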
